A study of Homo sapiens with 8 samples.

Results

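Inflammatory chemokines, interleukin-6 family cytokines and the chemokine receptor CXCR4 were examined in RNA libraries of UM-RC-2 cells, an established line of clear cell renal cell carcinoma with a mutated VHL gene. The set held 10 genes, chosen by symbol, and all 10 were found among the 43682 symbols of the count tables. These were the neutrophil-attracting chemokines CXCL1, CXCL2, CXCL3, CXCL5 and CXCL8, the monocyte-attracting chemokine CCL2, the cytokines IL6, LIF and IL11, and CXCR4. Cells carried a stable lentiviral construct, either VHL or the one labelled VEC, and were selected with blasticidin at 10 µg/ml. Each group had 2 libraries, numbered 1 and 2, and all 4 share the cell line, its VHL mutation and the drug selection. The labels name no cytokine or other inflammatory stimulus, no oxygen level and no clone, and do not say whether libraries came from separate cultures, so p-values measure only the spread between these samples.

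VHL is the substrate receptor of a ubiquitin ligase that marks the alpha subunits of hypoxia-inducible factors (HIF) for degradation, and CXCR4 is a known HIF target. The other genes are classic outputs of NF-kB, a family of dimeric transcription factors held in the cytoplasm by inhibitor proteins until a cytokine or microbial signal activates the inhibitor kinases. AP-1 factors act together with NF-kB on several of these promoters, and interleukin-6 family cytokines signal through receptors that share the subunit gp130 and activate STAT3. Tumour cells of the kidney are known to release such chemokines, which draw neutrophils and monocytes, while CXCR4 responds to the chemokine CXCL12.

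RefSeq promoter sequences (GRCh38.p14) were matched for 8 of the 10 genes. The 150 bases before the start site are printed for 7 of them, because they show how alike the CXCL1, CXCL2 and CXCL3 loci are and where the letters recognised by NF-kB or HIF lie in genes whose counts are given next. Capitals mark GGANNTTCC, the core of the NF-kB motif, on either strand, and in CXCR4 they mark ACGTG or GCGTG, the core of the HIF response element, on either strand.
CXCL1, chr4:73869243-73869392, plus strand: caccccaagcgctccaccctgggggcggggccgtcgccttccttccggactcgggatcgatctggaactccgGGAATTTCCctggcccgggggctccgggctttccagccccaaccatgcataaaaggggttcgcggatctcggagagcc
CXCL2, chr4:74099196-74099345, minus strand: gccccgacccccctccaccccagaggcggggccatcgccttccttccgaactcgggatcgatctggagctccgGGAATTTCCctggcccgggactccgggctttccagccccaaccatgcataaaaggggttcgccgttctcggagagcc
CXCL3, chr4:74038690-74038839, minus strand: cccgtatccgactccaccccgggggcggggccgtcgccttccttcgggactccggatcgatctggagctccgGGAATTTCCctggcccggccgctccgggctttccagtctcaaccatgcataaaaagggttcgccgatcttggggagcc
CXCL5, chr4:73998678-73998827, minus strand: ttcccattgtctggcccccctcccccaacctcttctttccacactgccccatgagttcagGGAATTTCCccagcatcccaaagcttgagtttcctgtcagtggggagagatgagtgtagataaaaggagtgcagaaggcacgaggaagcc
CXCL8, chr4:73740419-73740568, plus strand: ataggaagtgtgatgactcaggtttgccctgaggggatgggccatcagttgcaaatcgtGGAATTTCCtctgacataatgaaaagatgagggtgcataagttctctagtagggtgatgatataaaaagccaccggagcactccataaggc
IL6, chr7:22727050-22727199, plus strand: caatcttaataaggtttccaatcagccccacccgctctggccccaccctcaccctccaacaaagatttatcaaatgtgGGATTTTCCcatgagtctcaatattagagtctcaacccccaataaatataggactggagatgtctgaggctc
CXCR4, chr2:136118150-136118299, minus strand: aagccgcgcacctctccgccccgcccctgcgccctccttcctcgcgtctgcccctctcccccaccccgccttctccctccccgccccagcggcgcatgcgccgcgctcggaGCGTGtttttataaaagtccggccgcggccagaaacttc

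Over the 250 bases before the start site, 6 of the 8 matched genes held GGANNTTCC, against 3.84% of 35116 promoter windows of the same length. The motif was chosen with these sequences in view. Its last base lay 70 bases before the start site in CXCL1 and CXCL3, 69 in CXCL2, 82 in CXCL5, 83 in CXCL8 and 64 in IL6. IL11 and CXCR4 did not hold these letters in the window. The HIF core letters were found in 3 of the 8 windows, against 43.2% of all windows, and lay 35 bases before the start site in CXCR4. The printed stretches of CXCL1 and CXCL2 were 88.7% identical and those of CXCL1 and CXCL3 88.1%, compared with 47.3% between CXCL1 and CXCL8. A match describes letters and is not a measured binding site.

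The libraries held between 16230291 and 50027348 counts and stood apart by replicate number. Pearson's r of log2(CPM + 1) across 21673 genes (CPM, counts scaled to library size) was 0.991 and 0.978 between the groups within a number, and 0.504 and 0.534 between the numbers within a group. Pseudogenes took 1.33% and 2.04% of the counts in replicate 1 but 31.2% and 24.9% in replicate 2. Among 18941 protein-coding genes, 774 (4.09%) had at most 3 counts in each replicate 1 library and at least 100 in each replicate 2 library, and 7 showed the reverse. VHL was therefore compared with VEC within each number. The transcript of VHL reached 37.1 (VEC) and 146 (VHL) CPM in replicate 1 and 88.9 (VEC) and 151 (VHL) CPM in replicate 2, higher in the library labelled VHL each time. Counts do not separate the introduced VHL from the mutant gene. Kidney lineage and epithelial markers such as PAX8 (1592, 1416, 2458 and 1665 counts in VEC and VHL of replicate 1, then VEC and VHL of replicate 2, the order used throughout) were present, while KRT19 was at 0 in all 4 libraries and EPCAM at no more than 2.

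Most of the inflammatory genes were at or near 0 counts in both groups, and none of the 10 was called as changed by VHL. CXCL1 and CXCL3 had 0 counts in every library, and 7 of the 10 stayed under 20 counts in every library, against 29.3% of protein-coding genes. Low counts were not particular to this set, since 72.9% of 59 other chemokine ligands and receptors also stayed under 20. LIF was the one gene with more than 20 counts in all 4 libraries. CXCL5 and IL11 had at least 100 counts in each replicate 2 library and at most 3 in each replicate 1 library. The filter on low counts was passed by 4 of the 10 (CXCL5, CXCL8, LIF and IL11), compared with 72.4% of protein-coding genes and 27.1% of those 59. Of those 4, 0 passed an adjusted p of 0.05 in edgeR's quasi-likelihood test with the replicate number as a block, where 3.1% of the 24417 genes tested were called (183 higher, 0.749%, and 573 lower, 2.35%). Without the block, 0 of the 4 and 0 of all 24417 genes were called by edgeR, with 0 of the 4 and 22 of all genes at an unadjusted p under 0.05. With the block, 1 of the 4 (CXCL5) had an unadjusted p under 0.05, as did 3050 of all 24417 genes. DESeq2's Wald test with the block gave an adjusted p to IL11 (0.931, not called) but none to CXCL5, CXCL8 or LIF. It therefore could not call those genes and says nothing further about them.

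**Figure D1:**
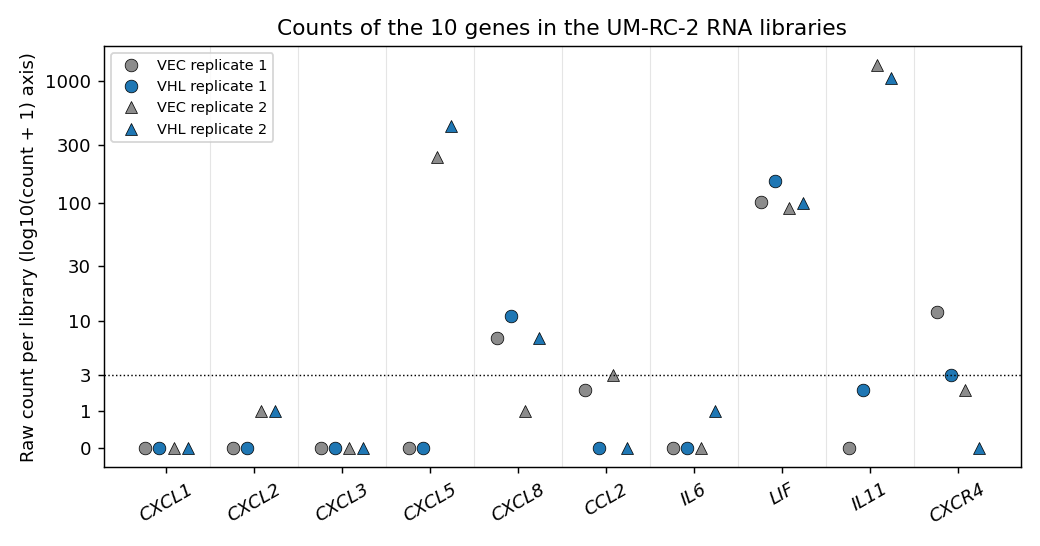
Raw counts of the 10 genes in each library, on a log10(count + 1) axis; circles are replicate 1, triangles replicate 2, grey VEC and blue VHL, and the dotted line marks 3 counts. LIF lies between 91 and 151 counts in all 4 libraries, CXCL5 and IL11 are high in replicate 2 alone, and the other 7 genes lie at 12 counts or fewer.

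The chemokines closest to one another, CXCL1, CXCL2 and CXCL3, which bind the neutrophil receptor CXCR2, were not detected above 1 count. CXCL2 had 0 and 0 counts in replicate 1 and 1 and 1 in replicate 2. A count of 0 allows up to 3 counts, which corresponds to 0.130 CPM (VEC) and 0.161 CPM (VHL) for replicate 1 and to 0.0658 and 0.0735 CPM for replicate 2. These limits cover counting error only. The 3 genes are close paralogs, and how reads that fit several of them were counted is not stated, so their values are uncertain.

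CXCL8, which encodes interleukin-8, was counted 7 times in the VEC library and 11 times in the VHL library of replicate 1, and 1 and 7 times in those of replicate 2. It was higher in VHL within both numbers, but VEC of replicate 1 equalled VHL of replicate 2 in counts, so the groups overlapped. The ratio of VHL to VEC was 1.95 in replicate 1 (95% exact counting interval 0.690 to 5.93) and 7.82 in replicate 2 (1.004 to 352). The replicate 1 interval includes equal levels, and that of replicate 2 only just leaves them out. The log2 change over both pairs was 1.52 ± 0.93 (SE, n = 2 per group, edgeR adjusted p = 0.566), so no change was called at this depth.

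CXCL5, a further neutrophil chemokine, was at 0 in each replicate 1 library and reached 237 counts for VEC and 429 for VHL in replicate 2. The replicate 2 pair alone thus carries its comparison, at 5.20 against 10.5 CPM and a ratio of 2.02 (counting interval 1.72 to 2.38). Its log2 change of 1.01 ± 0.50 was not called (edgeR adjusted p = 0.368, n = 2 per group). CXCL5 is 1 of the 774 protein-coding genes with at most 3 counts in each replicate 1 library and at least 100 in each replicate 2 library. The part of that split between the numbers in its value was not tested.

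CCL2, the main monocyte chemokine, was counted 2 times in VEC and 0 times in VHL for replicate 1, and 3 and 0 times for replicate 2. Counts appeared in the VEC libraries alone, but all values lay at or under the limit that a count of 0 allows, so no fold is given.

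IL6 had 1 count in all, in VHL of replicate 2. Its receptor subunits were present: IL6R, the ligand-binding chain, had 519, 548, 1383 and 1365 counts, and IL6ST, which encodes gp130, had 7135, 4924, 6265 and 7318. The log2 change of IL6ST was 0.08 ± 0.24 and that of IL6R 0.26 ± 0.23 (edgeR adjusted p = 0.980 and 0.777, n = 2 per group). The receptor chains were thus measured well in all 4 libraries, in which their ligand had at most 1 count.

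LIF, a cytokine that signals through LIFR and gp130, was measured in every library. VEC and VHL had 101 and 151 counts in replicate 1 (4.36 and 8.09 CPM), and 91 and 100 in replicate 2 (2.00 and 2.45 CPM). It was higher in VHL within both numbers, while VEC of replicate 1 lay above VHL of replicate 2, so the groups overlapped. The ratio was 1.86 in replicate 1 (counting interval 1.43 to 2.41) and 1.23 in replicate 2 (0.914 to 1.65). Over both pairs the log2 change was 0.60 ± 0.38 (SE, n = 2 per group), short of a call (edgeR adjusted p = 0.591). LIFR, its receptor, had 385, 377, 357 and 516 counts and a log2 change of 0.49 ± 0.27 (edgeR adjusted p = 0.468).

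IL11, a cytokine linked to fibrosis, had 0 (VEC) and 2 (VHL) counts in replicate 1, and 1350 and 1061 in replicate 2. With 29.6 (VEC) and 26.0 (VHL) CPM, replicate 2 stood far above the replicate 1 libraries, whose highest value was 0.107 CPM. The replicate 2 ratio was 0.878 (counting interval 0.809 to 0.952), and the log2 change over both pairs was -0.10 ± 0.36 (edgeR adjusted p = 0.985, n = 2 per group). The direction was opposite in replicate 1, on 2 counts. DESeq2 gave 0.57, also of opposite sign and not called. IL11 belongs to the same 774 genes as CXCL5. Its specific receptor chain, IL11RA, had between 7 and 19 counts.

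CXCR4, a known VHL-HIF target, had 12 (VEC) and 3 (VHL) counts in replicate 1 (0.518 and 0.161 CPM), and 2 and 0 in replicate 2. It was lower in VHL within both numbers, and the groups overlapped, since VEC of replicate 2 had fewer counts than VHL of replicate 1. VEC exceeded VHL by 3.22-fold in replicate 1, with a counting interval of 0.870 to 17.8 that includes equal levels, and no fold is given for replicate 2. CXCR4 did not pass the filter. In the edgeR fit without a filter, with the block, it was not called (adjusted p = 0.986). In the same libraries CA9, the HIF target carbonic anhydrase IX, fell to 1.56 CPM from 67.5 and to 1.40 CPM from 61.8. All 13 hypoxia reference genes that passed the filter fell (13 of 13 called lower by edgeR and 12 by DESeq2, against 2.35% of all genes in edgeR), with a median log2 change of -1.95 beside -0.03 over all tested genes. That list was chosen with earlier results of these libraries known and is no independent evidence.

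**Figure D2:**
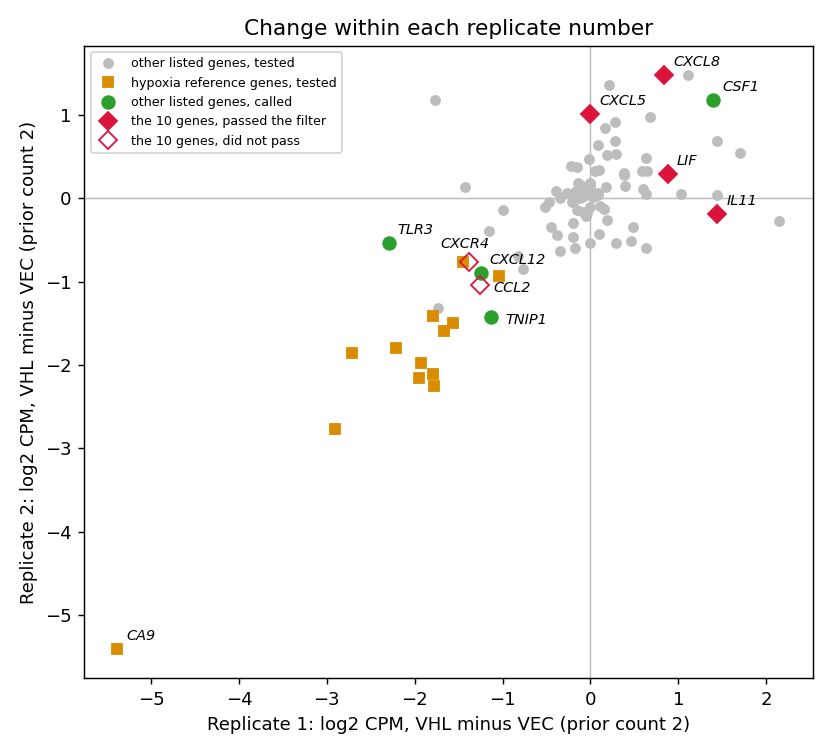
Each point is a gene, placed by its log2 CPM difference, VHL minus VEC with a prior count of 2, in replicate 1 (x axis) and replicate 2 (y axis). CXCR4 and CCL2 (open diamonds) rest on 12 counts or fewer and their places depend on the prior count (with 0.5, CCL2 moves to -2.71 and -2.38), CXCL5 sits at 0 on the x axis because it had no replicate 1 counts, and CA9 is lowest on both axes. With a prior count of 0.5, IL11 moves to 2.98 on the x axis and CXCL8 to 2.32 on the y axis.

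By likeness of the within-number log2 changes (prior count of 2), among 11353 genes with at least 50 counts in the higher library of each number, the genes nearest to CXCR4 were PDZD3, SLC2A1 and ELFN1 (Euclidean distances 0.06, 0.07 and 0.07), and those nearest to CXCL8 were HAS3, POLR3G and SLC22A15 (0.06, 0.07 and 0.10). With a prior count of 0.5, the replicate 2 change of CXCR4 went from -0.77 to -1.93 and that of CXCL8 from 1.47 to 2.32, and 0 of the 3 neighbours of either gene stayed the same, so the prior count sets these lists. LIF, added after its values were seen, was nearest to HNRNPH3, ABR and PDGFB (each 0.04), and all 3 stayed with a prior count of 0.5. No neighbours are given for IL6, which had 1 count. The likeness covers 4 libraries.

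The ligand of CXCR4 fell where the receptor was barely measured. CXCL12, also called SDF-1, had 1148 (VEC) and 388 (VHL) counts in replicate 1, and 3677 and 1767 in replicate 2. This was 49.6 against 20.8 CPM and 80.6 against 43.3 CPM. In CPM both VHL libraries lay below both VEC libraries. Its log2 change was -1.07 ± 0.22 (SE; edgeR adjusted p = 9.97e-05 with 2 libraries per group, and 0.999991 without the block). ACKR3, the other receptor of CXCL12, had 0 counts in every library.

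Of the 37 other chemokine ligands, 22 were at 0 in all 4 libraries and 10 passed the filter. CXCL12 was the 1 ligand called, and the median log2 change of the 10 was 0.12. An unadjusted p under 0.05 in edgeR was reached by 2 of the 10 (CXCL12 and CCL15). Of the 22 other chemokine receptors, 10 were at 0 throughout, 6 passed and 0 were called by edgeR or DESeq2 (0 also at an unadjusted p under 0.05 in edgeR), with a median of 0.07. CXCR1 and CCR2, receptors for CXCL8 and CCL2, had 0 counts in every library. CXCR2 had 0 in both replicate 1 libraries and 686 and 641 in replicate 2. Of these 59 ligands and receptors, 7 (11.9%) had at most 3 counts in each replicate 1 library and at least 100 in each replicate 2 library, which are CCL5, CCL16, CCL22, CCL28, ACKR2, CCR4 and CXCR2. They were named after their values were seen.

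All 19 listed NF-kB subunits, kinases and inhibitors passed the filter, and their median log2 change was 0.00, beside -0.03 over all tested genes. RELA, the activating p65 subunit, had 719, 565, 1609 and 1271 counts and a log2 change of -0.11 ± 0.22. NFKBIA, the inhibitor that NF-kB itself induces, had 2069, 1773, 1170 and 1089 counts and a log2 change of 0.07 ± 0.21 (edgeR adjusted p = 0.959 for RELA and 0.980 for NFKBIA). Both were named after their values were seen. TNIP1, which encodes the A20-binding restraint of NF-kB signalling ABIN-1, was the 1 of the 19 that was called. No other gene of the 19 had an unadjusted p under 0.05 in edgeR. It fell from 1617 to 595 counts and from 1177 to 392, which is 69.9 against 31.9 CPM and 25.8 against 9.60 CPM. In CPM it was lower in VHL within both numbers, and VHL of replicate 1 lay above VEC of replicate 2. Its log2 change was -1.28 ± 0.22 (n = 2 per group, edgeR adjusted p = 2.97e-06, and 0.999991 without the block).

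Among 30 other NF-kB target genes, 6 were at 0 in every library, 17 passed the filter and 1 was called, with a median log2 change of 0.03. The called gene was CSF1, which encodes the macrophage growth factor M-CSF. It rose from 257 to 547 counts and from 444 to 900, which is 11.1 against 29.3 CPM and 9.74 against 22.0 CPM. Both VHL libraries lay above both VEC libraries in CPM for CSF1. Its log2 change was 1.29 ± 0.26 (n = 2 per group, edgeR adjusted p = 7.53e-05, and 0.999991 without the block). ICAM1, an adhesion molecule for leukocytes, had 308, 216, 661 and 426 counts and a log2 change of -0.34 ± 0.28, and BIRC3, an inhibitor of apoptosis, had 162, 197, 365 and 411 counts and a change of 0.46 ± 0.30. Neither was called (edgeR adjusted p = 0.748 and 0.616), and both were named after their values were seen. An unadjusted p under 0.05 in edgeR was reached by 4 of the 17 (CSF1, IER3, IL32 and TNFAIP6). Over all 24417 genes tested, 3050 reached it. The log2 changes of IER3, IL32 and TNFAIP6 were 1.27, -0.76 and -0.77 (edgeR adjusted p = 0.236, 0.213 and 0.0845, not called). This list shares TNFAIP3, NFKBIA, NFKB2 and RELB with the subunit list.

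Of 16 upstream cytokine receptors and adaptors, 14 passed and 1 was called, with a median log2 change of -0.11. An unadjusted p under 0.05 in edgeR was reached by 5 of the 14 (IL1R1, TLR3, TLR4, TRADD and RIPK1). Over all 24417 genes tested, 3050 reached it. The called gene was TLR3, a sensor of double-stranded RNA, with 1108 and 181 counts in replicate 1 and 2842 and 1751 in replicate 2. In CPM it fell from 47.9 to 9.70 in replicate 1 and from 62.3 to 42.9 in replicate 2, and both VHL libraries lay below both VEC libraries. Its log2 change was -1.37 ± 0.23 (n = 2 per group, edgeR adjusted p = 5.55e-07, and 0.999991 without the block), but it was -2.30 in replicate 1 and -0.54 in replicate 2, and DESeq2 did not call it (adjusted p = 0.0963). IL1R1, the interleukin-1 receptor, had 724, 905, 1414 and 1761 counts and was not called by edgeR (0.55 ± 0.22, adjusted p = 0.175), but DESeq2 called it higher. It was named after its values were seen.

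**Figure D3:**
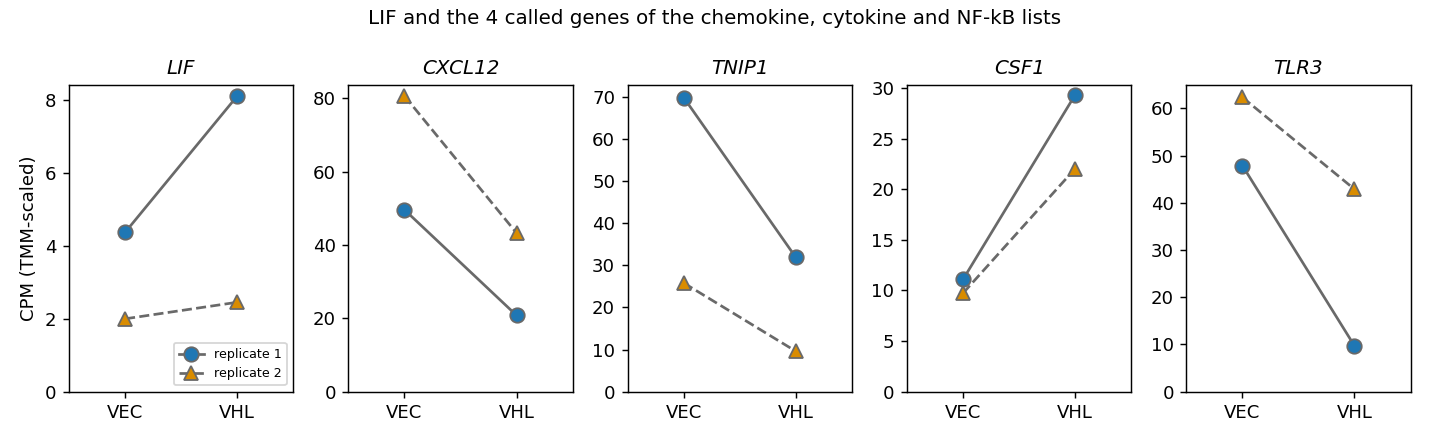
CPM of LIF, CXCL12, TNIP1, CSF1 and TLR3 in VEC and VHL, each panel with its own axis from 0; lines join libraries of one replicate number, with circles for replicate 1 and triangles for replicate 2. CXCL12, TNIP1 and TLR3 are lower and CSF1 is higher in VHL within both numbers, and LIF is higher in both by unequal amounts.

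The interleukin-6 family list held 19 further ligands, receptors and signalling genes, of which 14 passed and 0 were called by edgeR (0 at an unadjusted p under 0.05), with a median log2 change of 0.02. STAT3 had 1453, 1241, 2740 and 2522 counts and a log2 change of 0.06 ± 0.21 (edgeR adjusted p = 0.985). SOCS3, the feedback inhibitor induced by STAT3, had 96, 67, 28 and 20 counts and a log2 change of -0.26 ± 0.49 (edgeR adjusted p = 0.958). All 8 AP-1 subunits passed and 0 were called by edgeR or DESeq2 (0 at an unadjusted p under 0.05 in edgeR), with a median of 0.29. JUN, the central subunit, had 741, 639, 741 and 835 counts and a log2 change of 0.21 ± 0.23 (edgeR adjusted p = 0.862). STAT3, SOCS3 and JUN were named after their values were seen. Over the 7 lists together, 82 of 145 genes passed the filter and 4 (4.88%) were called, beside 3.1% of all tested genes.

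**Figure D4:**
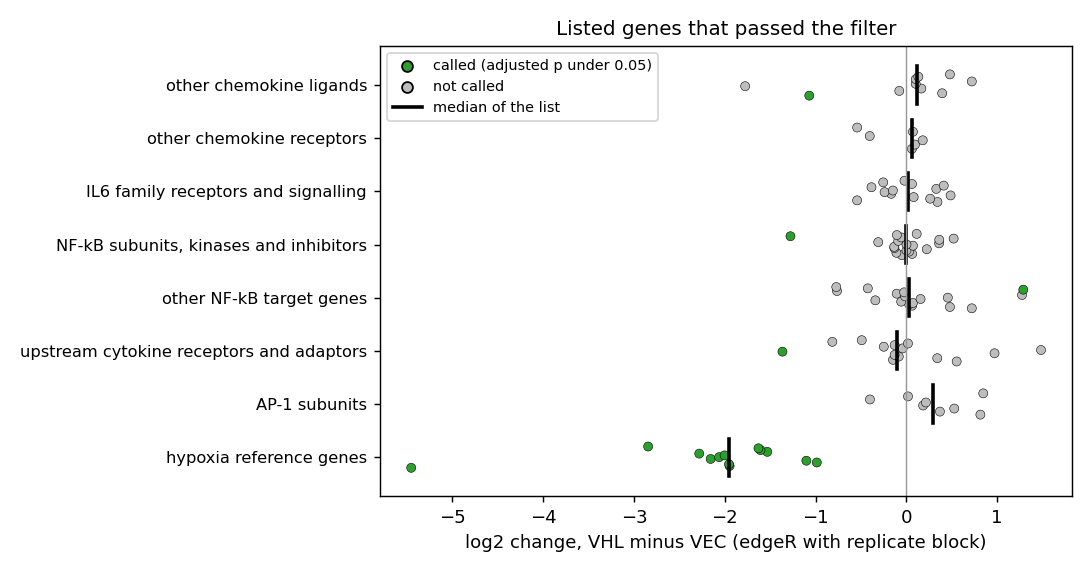
Log2 change of each listed gene that passed the filter, VHL minus VEC from edgeR with the replicate block; each point is a gene, green where called, and the black bar is the median of its list. Medians of the 7 chemokine, cytokine, NF-kB and AP-1 lists lie between -0.11 and 0.29, and the hypoxia reference genes lie at -1.95.

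Markers of cells that release or answer these chemokines were also counted. Of 12 leukocyte markers, CD3E, MS4A1, NKG7 and LST1 were at 0 in every library and 3 passed the filter. Their summed level was 17.8 (VEC) and 12.2 (VHL) CPM in replicate 1, and 87.7 and 82.5 CPM in replicate 2. CD68 made up 17.6 and 11.6 CPM of the replicate 1 sums, and CD68 (42.2 and 36.9 CPM) and LYZ (43.6 and 43.9 CPM) most of the replicate 2 sums. PTPRC, the pan-leukocyte marker CD45, had 0 and 0 counts in replicate 1 and 72 and 63 in replicate 2, on the same side as CXCL5 and IL11. The 8 fibroblast markers summed to between 0 and 1.62 CPM, with COL1A2, COL3A1 and FAP at 0 throughout. The 7 endothelial markers summed to 0.259 and 0 CPM in replicate 1 and to 24.9 and 46.0 CPM in replicate 2, with PECAM1, CDH5, VWF and KDR at 0 in every library. EMCN alone gave 24.8 and 46.0 CPM of the replicate 2 sums. LYZ (0, 1, 1989 and 1793 counts) and EMCN (0, 0, 1133 and 1878) split between the numbers as CXCL5 and IL11 did. Each had at most 3 counts in each replicate 1 library and at least 100 in each replicate 2 library. Whether that split sets the sums was not tested, and the sums do not show that such cells were present. In bulk RNA, fewer cells of a type and less RNA per cell cannot be told apart. The part of these differences in the values of CXCL5 and IL11 was not tested.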

How the data were processed

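The deposited RNA tables hold the authors' unnormalised counts by gene symbol, taken from sorted hg19 alignments per the file headers. featureCounts and HOMER are named in the submitters' processing notes; the aligner, annotation, strand setting and treatment of multi-mapping reads are not given in the sources used here. Alignments of both replicate 2 libraries have another form of name, per the file headers. Groups and replicate numbers came from the titles. The H3K27ac tables name regions without positions and were not used.

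The test was edgeR 4.0.16 under R 4.3.3 (filterByExpr by group, TMM, quasi-likelihood F test, replicate number as a block, two-sided, Benjamini-Hochberg over 24417 genes, calls under 0.05); the SE is the size of the log2 change over the root of F. The blocked fit left 1 residual degree of freedom, so its p-values and SE rest on an estimate of spread that edgeR shares across genes. CPM use TMM-scaled library sizes. Within-number changes use a prior count of 2, and counting intervals are exact binomial (95%). Gene classes came from RefSeq (GRCh38.p14), which matched 96.4% of symbols. DESeq2 1.42.0, other scalings, filters and left-out libraries were alternatives. The rule for named genes took the 10 members, up to 5 called genes per list by adjusted p, VHL, CA9 and nearest neighbours; receptors of the members, markers and other uncalled genes were named after their values were seen. Members, lists, the block and tests were chosen with earlier results of these data known. The numbers are not said to mark a batch; across genes, same-numbered libraries deviated from their group means together (r = 0.982). The DESeq2 call of 1 listed gene is not reported here.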

Additional observations from a re-analysis of the deposited data

How the results depend on the processing

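Calls depended on the replicate block. With no replicate block, 0 genes, 0 of the 10 members and 0 of the 82 listed genes were called, at a common dispersion of 2.57 against 0.0251 with the block; leaving out each library in turn without the block also gave 0 in each (range 0 to 0), where the lone library is assumed to vary like the others. With the block, 756 genes were called (24.2% higher). The stricter filter called 1276 (32.3% higher, 559 shared with the 756), among them 8 listed genes, which added CCL15, IER3, TNFAIP6 and TRADD to the 4. DESeq2's Wald test called 1203 (39.7% higher, 405 shared), among them the listed genes CXCL12, TNIP1, CSF1 and IL1R1, and the fit of protein-coding genes alone shared 501 with the 756 (35.4% of its calls were higher). Genes within 4-fold between the replicate numbers, an alternative chosen after seeing the data, gave 1087 (458 shared) and 6 listed genes, the 4 plus IL32 and TNFAIP6. No replicated fit above, nor those with DESeq2 size factors or no filter, called any of the members it tested. The stricter filter and the fit of genes within 4-fold each tested 1 member (LIF). Protein-coding genes alone left 3, and the fit with no filter 8. DESeq2's Wald test gave no adjusted p to CXCL5, CXCL8 or LIF. Where a member was tested by edgeR, the lowest adjusted p was 0.283 for LIF, 0.235 for CXCL5, 0.515 for CXCL8 and 0.857 for IL11. IL11 turned to 0.57 in DESeq2, and was -0.19 without replicate 1 and 1.44 without replicate 2. That 1.44 rests on 0 and 2 counts and was 2.98 with a prior count of 0.5. CXCL5 was 1.01 without replicate 1 and has no value without replicate 2, having no counts in replicate 1. Without the block, leaving out a library moved IL11 between -7.16 and 11.51 (0.81 without VHL replicate 1), CXCL5 between -9.31 and 10.20, and LIF between -0.37 and 1.40 (log2). Without the block, CXCL12, TNIP1, CSF1 and TLR3 kept their directions in each left-out fit. VHL changed by 1.98 in replicate 1 and 0.77 in replicate 2. Except where a library was left out, the cause of these shifts was not tested. For the 7 genes under 20 counts in every library, counting error limits what could be detected; CXCL8 was the 1 of them that passed the filter. The nearest genes to CXCR4 and CXCL8 changed with a prior count of 0.5, an alternative added after seeing the data.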
